A study of Mus musculus with 4 samples.

Results

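Granulocytes and GFP-low monocytes of mouse bone marrow were compared gene by gene on 2 expression arrays, 1 for each population. They are 2 of the 4 arrays of a series on how Gfi1, a transcriptional repressor, takes part in the choice between the granulocytic and the monocytic fate. Both populations came from C57BL/6 mice, backcrossed for at least 10 generations, which were 8 weeks old, untreated and kept free of specific pathogens. Both were of the genotype GFP:Gfi1 KI/WT, in which GFP, green fluorescent protein, is encoded at 1 of the Gfi1 alleles, so granulocytes and monocytes alike had 1 Gfi1 allele of the wild type. Granulocytes were sorted as CD11b+ and Gr1-high, and GFP-low monocytes as CD11b+, Gr1-low cells with little GFP signal. The labels do not give the number of animals behind an array or whether animals were pooled. The other arrays, used here for levels only, are of GFP-high Gr1-low cells of heterozygous mice and of Gr1-low cells of GFP:Gfi1 KI/KI mice, which lack Gfi1.

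The measure was the log2 value in granulocytes minus that in GFP-low monocytes, with each gene read from its probe set (a group of short probes for 1 transcript) of highest mean over the 4 arrays. Of 12393 genes, 8503 had such a difference, and 3890 were below the floor on both arrays. The floor, log2 5.18, is the level under which values were not told apart. Where 1 array was below it, a fold is given as "at least". With 1 array per population there was no test and no replicate check, and genes are counted by size of difference alone. The error that could be measured was the scatter between probe sets of the same gene, with an SD of 0.35 on the log2 scale over 2711 genes. It does not cover the spread between animals.

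Neutrophilic granulocytes and monocytes arise from a common precursor in the bone marrow. Neutrophils fill granules of several kinds in sequence, stop dividing in the marrow, and leave as short-lived cells. These kill microbes and draw energy mainly from glycolysis. Monocytes keep more of their machinery for making, degrading and presenting proteins, and can become macrophages or dendritic cells in tissues.

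The start regions of marker genes with opposite directions are shown because the receptor Cxcr2 stands for the granulocyte label and the transcription factor Irf8 for the monocyte label. The sequences are from RefSeq, mouse build GRCm38.p6, and run from 250 bases before to 50 bases after the annotated start, on the plus strand. Capitals mark a match to any of 3 motifs, searched on both strands: TTGCNNAA (C/EBP), AGAGGAA (PU.1) and GAAANNGAA (IRF).
Cxcr2, chr1:74153744-74154043: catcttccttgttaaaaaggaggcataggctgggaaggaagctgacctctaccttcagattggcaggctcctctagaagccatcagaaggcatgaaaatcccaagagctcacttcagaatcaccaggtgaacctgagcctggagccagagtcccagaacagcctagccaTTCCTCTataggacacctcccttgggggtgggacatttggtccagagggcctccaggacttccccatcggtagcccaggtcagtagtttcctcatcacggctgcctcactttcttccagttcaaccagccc
Irf8, chr8:120736108-120736407: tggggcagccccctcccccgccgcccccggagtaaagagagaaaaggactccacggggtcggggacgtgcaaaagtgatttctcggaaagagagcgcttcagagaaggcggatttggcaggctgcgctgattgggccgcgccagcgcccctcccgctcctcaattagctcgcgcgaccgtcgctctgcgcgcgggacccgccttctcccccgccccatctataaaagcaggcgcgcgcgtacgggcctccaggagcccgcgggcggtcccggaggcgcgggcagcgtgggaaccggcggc
The Cxcr2 window held 1 match, to the PU.1 motif on the minus strand, starting 81 bases before the start site. The Irf8 window shown, a further Irf8 window and that of Il1r2 (chr1:40085843-40086142) held none of these letters. Over the 8913 promoters of 6945 genes with a difference, 9.79% held the PU.1 letters, 8.61% the C/EBP letters and 7.06% the IRF letters. Among the 312 promoters of genes at least 4-fold higher in granulocytes, 15.4% held the PU.1 letters, 11.5% the C/EBP letters and 7.69% the IRF letters. Among the 401 promoters of genes at least 4-fold lower, 44 of the 401 held the PU.1 letters, and the shares of the C/EBP and IRF letters were 10.7% and 8.73%. The 2 sets differed in CpG content, with a median ratio of observed to random CpG of 0.56 for the genes higher in granulocytes, 0.72 for those lower and 0.75 for all. These are descriptions of letters and were not tested.

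Of the 8503 genes, 852 (10.0%) exceeded the GFP-low level by 2-fold or more in granulocytes, 1550 (18.2%) fell short of it by as much, and 6101 lay within 2-fold. By the stricter count of 4-fold or more, 284 genes (3.34%) were higher and 378 (4.45%) lower. The median difference over all genes was 0.00. Of 818 genes past 2-fold with several probe sets above the floor on both arrays, 765 had all of them on the same side. Where another probe set of a gene described below lay more than 1 on the log2 scale from the one used and on the other side of 2-fold, it is mentioned. In sorted bulk populations, a cell type that is rarer and a cell type with less RNA per cell cannot be told apart.

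**Figure D1:**
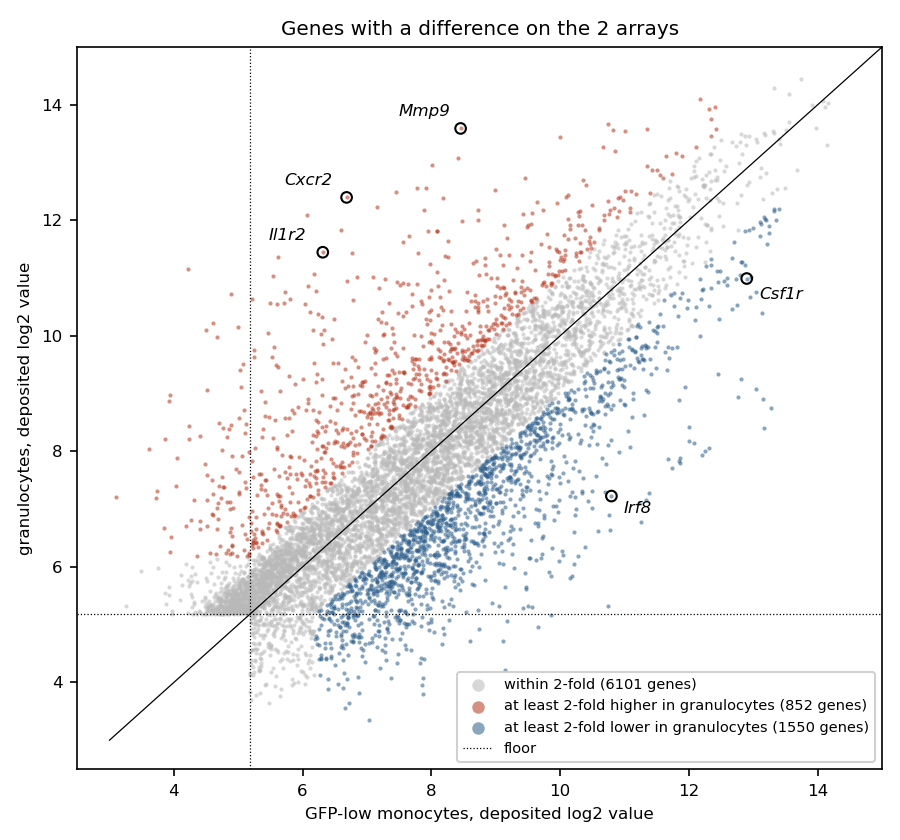
Each point is a gene, with its deposited log2 value in GFP-low monocytes on the x axis and in granulocytes on the y axis; colours mark genes at least 2-fold higher (852) or lower (1550) in granulocytes, dotted lines the floor of 5.18 and the solid line equal values. Cxcr2, Il1r2 and Mmp9 lie far above the line of equal values, and Csf1r and Irf8 below it.

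The markers went with the labels in direction. Cxcr2, the receptor for chemokines that call neutrophils out of marrow, read log2 12.40 in granulocytes, 6.68 in GFP-low monocytes, 8.79 in GFP-high cells and 6.04 in Gfi1-deficient cells. Csf1r, through which macrophage colony-stimulating factor acts, read 10.99, 12.90, 8.86 and 12.62 in the same order. It was therefore well above the floor in granulocytes too, and its difference of -1.91 was the smallest in size of the 5 marker genes. All 8 genes of a wider monocyte list were at least 2-fold lower in granulocytes, and 5 of 7 neutrophil genes at least 2-fold higher. The remaining 2, S100a8 and S100a9, which encode calprotectin, were above 13 on both arrays and differed by 0.64 and 0.71.

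Markers of other cells differed too, and their part in the results was not tested. Of 9 B cell markers, 7 were above the floor in granulocytes and 4 in GFP-low monocytes, with a summed level (log2 of the sum of the linear values) of 9.88 and 9.04. The 3 that differed by 2-fold or more, Cd79a (7.47 against 6.31), Vpreb3 (7.55 against 6.20) and Vpreb1 (6.22 against 4.66), all leaned to granulocytes. Cd79b was level at 7.59 and 7.58. Pax5 and Ebf1, which define B cells, were below the floor on both arrays. Of 7 T cell markers, 3 and 2 were above the floor, at summed levels of 9.37 and 8.11. Cd3d read 8.48 against 5.13, while Cd3e and Cd4 differed by 0.34 and 0.40. Stem and progenitor markers summed to 10.35 and 9.65, with Kit at 6.51 against 3.96 and Cd34 below the floor on both arrays. Dendritic cell markers of the conventional type leaned the other way, with summed levels of 9.08 in granulocytes and 10.11 in GFP-low monocytes. Their members were mixed, with Clec10a at 6.08 against 8.69 but Itgax at 6.71 against 5.78. Those of the plasmacytoid type summed to 10.03 and 10.64 and were split. Ly6d and Spib had differences of 1.08 and 1.20, whereas Bst2 and Tcf4 both had -1.99. Plasma cell markers summed to 11.12 and 12.35, with Xbp1 the highest of them at 10.62 and 11.62. Of the 7, 4 were at least 2-fold lower in granulocytes and 1 higher. Jchain read 6.45 against 8.18, and Pou2af1 6.67 against 4.89. Erythroid markers summed to 10.51 and 9.90, with Slc4a1 the highest at 9.14 against 8.59. Tissue macrophage markers summed to 10.06 and 10.76 and were split. Vcam1 and C1qc had differences of 1.09 and 1.03, whereas Adgre1 and Axl had -1.82 and -1.33. Of eosinophil markers, Siglecf read 7.02 against 4.92, while Prg2 and Prg3 differed by -0.24 and -0.23. Hdc, which makes histamine and also marks basophils and mast cells, was 33.7-fold higher in granulocytes, whereas Mcpt8 and Fcer1a, which define basophils and mast cells, were lower there, at 7.32 against 8.32 and 5.27 against 6.13.

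To describe the lineages by function, 1929 genes in 52 lists were read, of which 1738 had a difference. The lists fall into metabolism, organelles, migration, signalling, secretion, survival and regulators. The highest shares of genes lower in granulocytes were those of cytosolic ribosomal proteins (73.2%), proliferation (69.0%), ribosome biogenesis (58.3%), heat shock (56.0%) and mitochondrial translation and import (53.2%), and lists of granule contents, secreted cytokines and chemoattractant receptors the highest shares of genes higher there. Each count of higher or lower genes below leaves out members below the floor on both arrays. It stands beside 10.0% higher and 18.2% lower over all genes with a difference.

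**Figure D2:**
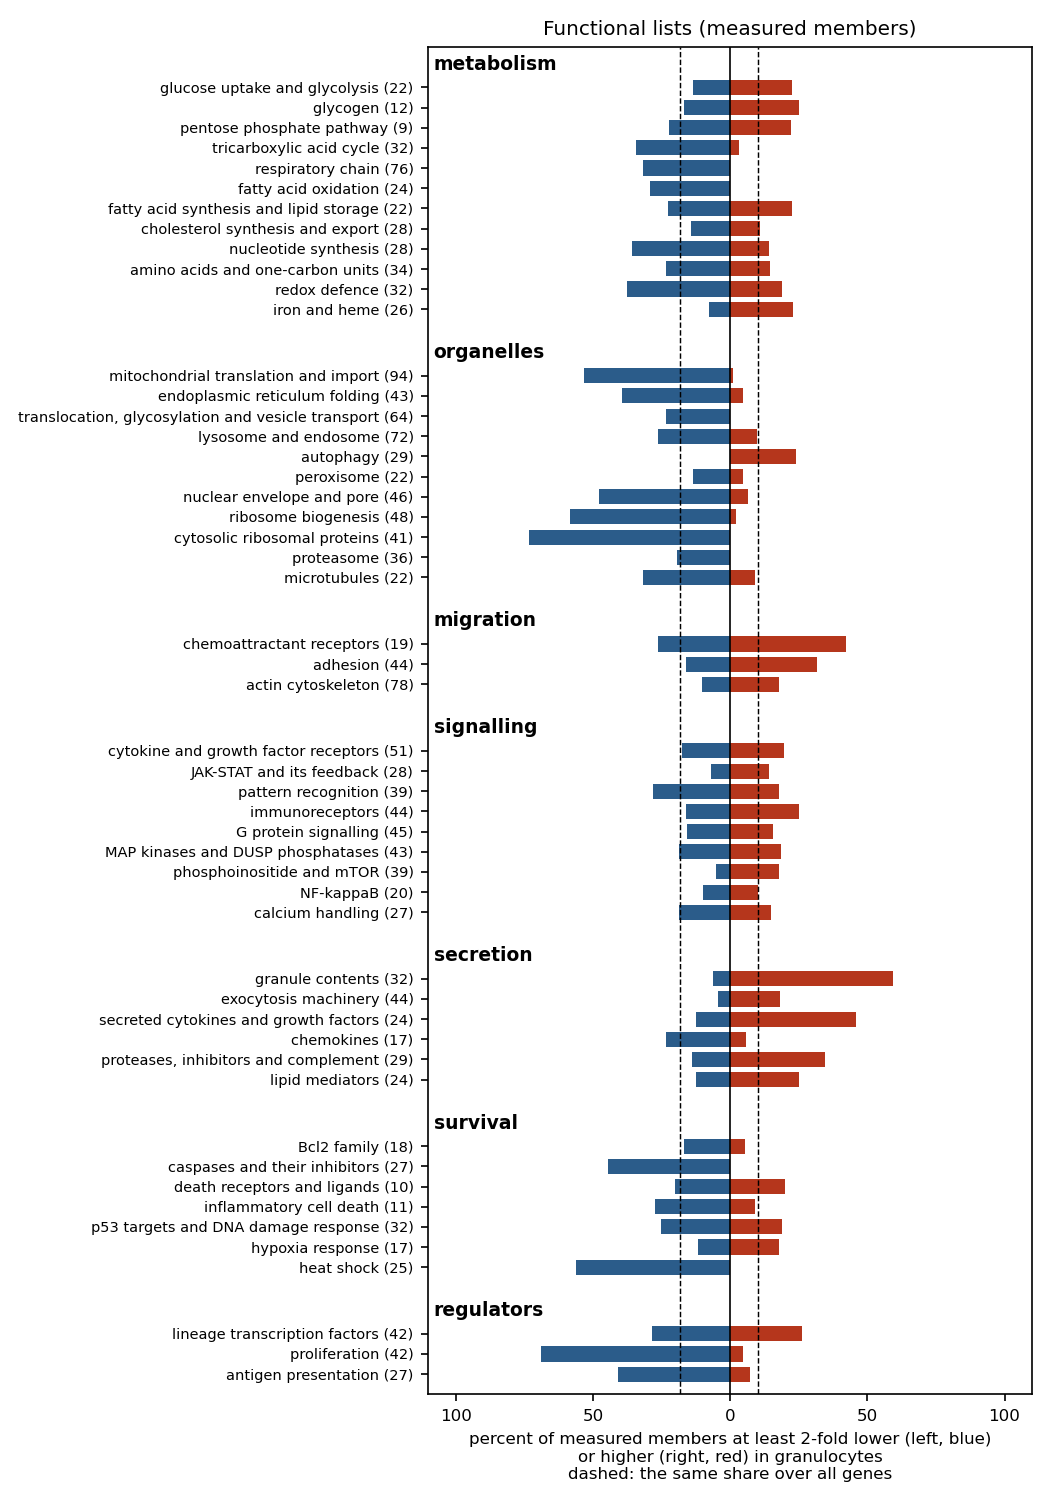
Bars give, for 51 of the 52 functional lists, the percent of measured members at least 2-fold lower (left, blue) or higher (right, red) in granulocytes than in GFP-low monocytes, with the number measured in brackets; dashed lines give the share over all genes, 18.2% and 10.0%. The longest blue bar is that of cytosolic ribosomal proteins (30 of 41 genes) and the longest red bar that of granule contents (19 of 32).

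Glucose handling differed by step. Of 22 genes of glucose uptake and glycolysis, 5 passed 2-fold upward in granulocytes and 3 downward (median 0.42). Slc2a3, a high-affinity glucose transporter, read 13.07 in granulocytes and 8.41 in GFP-low monocytes, a 25.4-fold difference, while Slc2a1, the general transporter, read 9.12 and 8.20. The other high values lay near the end of the pathway. Slc16a3, which exports lactate, was 6.74-fold higher, and Ldha, the lactate dehydrogenase chain that favours lactate formation, 2.49-fold higher. Its relative Ldhb read 6.33 against 8.21 and was 3.68-fold lower, and the lactate carrier Slc16a7 was 2.96-fold lower. Of the 9 upper-step genes measured, only Pfkfb3, which makes an activator of phosphofructokinase, passed 2-fold (3.12-fold higher). Several genes of the pathway, among them Hk3, Gpi1, Gapdh and Eno1, could not be matched to a probe set of 1 gene. Hexokinase 2 (Hk2, -0.12) and the phosphofructokinases Pfkl (-0.44) and Pfkp (-0.69) were within 2-fold.

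Glycogen genes showed the same kind of split between relatives. Gbe1, the branching enzyme, read 8.54 against 5.58 (7.81-fold higher in granulocytes) and Gys1, glycogen synthase, 9.23 against 6.96 (4.80-fold higher). Pygl, the liver-type phosphorylase that releases glucose units, was 3.02-fold higher, and Pygb, the brain-type enzyme, 2.44-fold lower. The pentose phosphate pathway, which feeds NADPH to the oxidative burst, had 2 genes higher and 2 lower of 9. Pgd, its second dehydrogenase, was 2.57-fold higher and Taldo1, transaldolase, 2.10-fold higher. Prps1 and Prps2, which divert its product to nucleotides, were 3.38-fold and 3.36-fold lower.

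Mitochondrial energy genes were lower in granulocytes. In the tricarboxylic acid cycle and its partners 11 of 32 genes were at least 2-fold lower and 1 higher (median -0.61). Fh1, fumarase, read 6.08 in granulocytes and 9.05 in GFP-low monocytes, and the isocitrate dehydrogenases Idh2 and Idh3a were 6.43-fold and 6.27-fold lower, with another Idh3a probe set at -0.81. Cs, citrate synthase, differed by only -0.66. The 1 gene higher was Pdk3 (2.21-fold), a kinase that shuts pyruvate dehydrogenase down.

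In the respiratory chain none of 76 genes was at least 2-fold higher, 24 were lower, and 68 lay below 0 (median -0.71). Complex I held 14 of the 24, led by Ndufa5 (-1.83). Slc25a4, which exchanges ADP for ATP across the inner membrane, read 5.66 against 9.48, a 14.1-fold difference and the largest of the list. The carrier Cycs, cytochrome c, was 2.78-fold lower, whereas Ndufs1, a core subunit of complex I, differed by -0.19. Fatty acid oxidation had 7 of 24 genes lower and none higher, all 7 in beta-oxidation itself. Hadh read 6.32 against 9.88 (11.7-fold lower) and Echs1 6.79 against 9.04. Cpt1a, the gate for fatty acid entry, stayed within 2-fold at -0.83.

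Lipid storage ran against oxidation and synthesis. Of 13 genes of storage and lipolysis, 5 were at least 2-fold higher and 1 lower (median 0.81), whereas 4 of 9 synthesis genes were lower and none higher. G0s2, an inhibitor of triglyceride lipase, read 11.08 in granulocytes, 6.18 in GFP-low monocytes, 9.83 in GFP-high cells and 5.65 in Gfi1-deficient cells. Dgat1 and Dgat2, the enzymes that complete triglycerides, were 13.3-fold and 9.32-fold higher, and Mgll, which splits monoglycerides, 12.9-fold higher, with its 4 probe sets between 0.80 and 3.69. Pnpla2, the triglyceride lipase itself, read 9.46 against 8.46, just under 2-fold. Plin2, a coat protein of lipid droplets, was near level at -0.27, and Lpin1, a phosphatase of triglyceride synthesis, was 6.00-fold lower. Fasn, fatty acid synthase, was 2.44-fold lower. Of cholesterol genes, 3 of 19 in synthesis were higher, led by Msmo1 (3.50-fold), and 3 of 9 in export and sensing were lower, among them Apoe (4.33-fold) and Npc2 (4.60-fold).

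Nucleotide synthesis and breakdown went apart. Of 18 genes that make purines, pyrimidines or deoxynucleotides, 8 were at least 2-fold lower and none higher. Paics, of purine synthesis, read 7.53 against 10.35, and Rrm2, a ribonucleotide reductase subunit that serves dividing cells, 8.50 against 9.84. Of 10 genes of degradation and salvage, 4 were higher and 2 lower. Upp1, uridine phosphorylase, read 9.41 in granulocytes and lay below the floor in GFP-low monocytes, so it was at least 18.8-fold higher. Ada, adenosine deaminase, was at least 6.67-fold higher and Entpd1, the surface enzyme CD39 that clears ATP, 6.42-fold higher.

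Amino acid genes were split without a common direction (5 higher and 8 lower of 34, median -0.01). Arg2, the mitochondrial arginase, read 11.16 against 4.22 and was at least 63.1-fold higher, while the cytosolic Arg1 was below the floor on both arrays. Asns, asparagine synthetase, was at least 8.81-fold higher. Psat1, of serine synthesis, read 5.08 against 8.28 and was at least 8.56-fold lower, and Mthfd2, of mitochondrial folate metabolism, 2.72-fold lower.

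Redox genes moved in both directions, with 6 of 32 higher and 12 lower. Mgst2 (12.4-fold), Glrx, glutaredoxin (6.89-fold), Msra, which repairs oxidised methionine (8.62-fold), and Gsr, glutathione reductase (2.44-fold), were higher in granulocytes. On the other side, Prdx4, the peroxiredoxin of the endoplasmic reticulum, read 5.85 against 10.19 and was 20.3-fold lower, although another of its probe sets gave -0.72. Gsto1 and Gstm1, glutathione transferases, were 9.04-fold and 7.41-fold lower, the superoxide dismutases Sod1 and Sod2 4.48-fold and 2.13-fold lower, and Cat, catalase, 2.82-fold lower. The 4 Gstm1 probe sets ran from -3.02 to -0.49. Of 26 iron and heme genes 6 were higher and 2 lower. Slc40a1, the iron exporter ferroportin, read 11.43 in granulocytes, 6.77 in GFP-low monocytes, 10.64 in GFP-high cells and 5.83 in Gfi1-deficient cells. Aco1, which senses iron, was 5.01-fold lower.

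The machinery that makes proteins was lower in granulocytes. Among 41 cytosolic ribosomal protein genes 30 were at least 2-fold lower, none higher and 40 below 0 (median -1.21). Rpsa read 10.75 against 13.05 and Rpl10a 10.53 against 12.75. Rps18, at -2.28, had probe sets of both signs, up to 0.17, and several ribosomal genes have near-identical copies elsewhere in the genome. Of 48 nucleolar factors for ribosome assembly 28 were lower and 1 higher (median -1.29). Fbl, fibrillarin, read 7.28 against 10.33 and Npm1, nucleophosmin, 8.11 against 10.74. The exception was Polr1a, the largest subunit of RNA polymerase I, at 8.98 against 6.79. Myc, a regulator of ribosome production, was at or near the floor on both arrays (4.91 and 5.71).

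Cell cycle genes moved with these lists, 29 of 42 being at least 2-fold lower and 2 higher (median -1.53). Pcna, the sliding clamp of DNA replication, read 9.81 against 11.82, and Mki67, a proliferation antigen, 9.56 against 11.22. The 2 that were higher were Ccnd2, a D-type cyclin (3.36-fold, with probe sets from 0.64 to 1.75), and Cdkn2d, an inhibitor of its kinases (2.30-fold). The part of dividing cells in the lower values of ribosomal, mitochondrial and nucleotide genes was not tested.

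Mitochondria were lower in their own translation as well as in energy genes. None of 62 mitochondrial ribosome genes was at least 2-fold higher and 30 were lower (median -0.99), with Mrpl52 at 6.71 against 9.65 and Mrpl42 at 6.40 against 9.26. Of 32 genes of import, chaperones and dynamics, 20 were lower and 1 higher. Hspe1, a matrix chaperonin, was 7.41-fold lower and Tfam, which packages mitochondrial DNA, 4.65-fold lower. The gene that was higher was Mfn2, which fuses mitochondria (7.82 against 6.61).

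**Figure D3:**
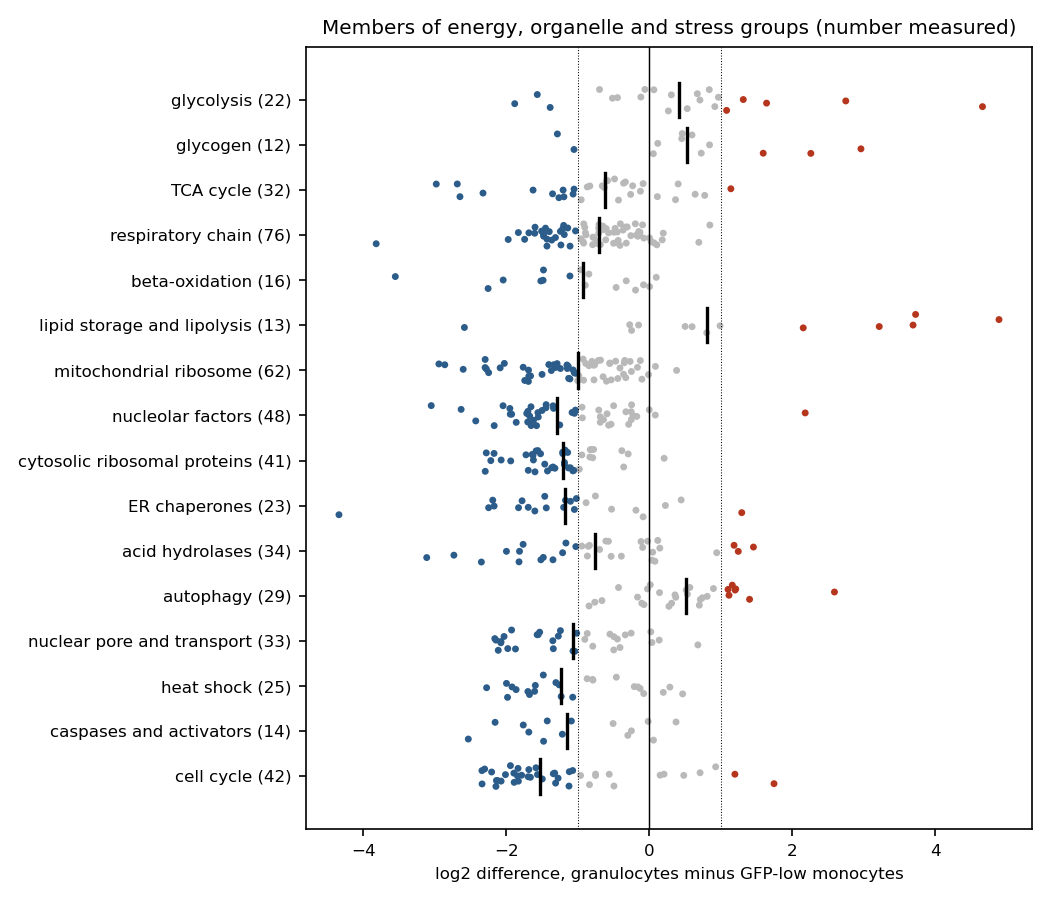
Each point is a measured gene, placed by its log2 difference (granulocytes minus GFP-low monocytes) within a functional group; red and blue mark genes at least 2-fold higher or lower, dotted lines 2-fold, and the black bar the group's median. Medians run from -1.53 for cell cycle genes to 0.81 for lipid storage and lipolysis, and glycogen and autophagy join lipid storage and glycolysis to the right of 0.

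In the endoplasmic reticulum the folding genes stood out from the stress response. Of 23 chaperones and disulfide-forming enzymes 15 were at least 2-fold lower and 1 higher, against 2 lower and 1 higher of 20 genes of stress response and degradation. Hsp90b1, a reticulum chaperone, read 8.95 against 10.64 and Txndc5, a disulfide isomerase, 6.71 against 8.96. Ero1a, the oxidase that recharges the disulfide isomerases, was 2.46-fold higher, and Ddit3, the stress factor CHOP, 2.71-fold higher. Translocation and vesicle transport had 15 of 64 genes lower and none higher, with the oligosaccharyl transferase subunits Rpn2 (-2.51) and Ddost (-2.27) at the low end. All 36 proteasome genes lay below 0 (median -0.80), but only 7 passed 2-fold, and 19.4% lower is near the 18.2% of all genes.

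Lysosome and autophagy genes parted. Of 34 acid hydrolases and their activators 13 were at least 2-fold lower and 3 higher. On the lower side were cysteine cathepsins, with Ctss at 10.40 against 13.13, Ctsc at 9.35 against 12.46, and Ctsb 2.86-fold lower, while Ctsl was level at -0.11. The aspartic cathepsin Ctsd read 11.69 against 10.23 and was 2.75-fold higher. Membrane proteins of the lysosome were lower for Lamp1 (3.03-fold) and Cd68 (4.12-fold), whereas Atp6v0a1, a chain of the proton pump, was 3.92-fold higher, with probe sets from 0.65 to 2.11. In autophagy 7 of 29 genes were higher and none lower (median 0.52). Wipi1, which marks forming autophagosomes, read 9.46 against 6.86, with probe sets from 0.35 to 2.72, and the conjugated proteins Map1lc3b and Gabarapl2 were 2.65-fold and 2.32-fold higher.

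The nucleus differed at its envelope. Syne1, a giant linker from the nuclear envelope to the cytoskeleton, read 11.62 in granulocytes and 7.56 in GFP-low monocytes, its partner Sun2 was 3.65-fold higher and Syne2 had a difference of 1.58. Sun1, the relative of Sun2, was 2.51-fold lower. The lamins Lmnb1 (0.60) and Lmna (0.15) and the lamin B receptor Lbr (0.51), which shapes the lobed neutrophil nucleus, were within 2-fold, but a second Lmnb1 probe set gave 2.29. In the nuclear pore and transport group 19 of 33 genes were at least 2-fold lower and none higher (median -1.07), for example Ranbp1, a factor of nuclear transport (4.42-fold). Microtubule genes followed in part, with 7 of 22 lower and 2 higher. Tubb2a, a beta-tubulin, was 7.54-fold lower and Stmn1, which depolymerises microtubules, 3.83-fold lower, while the alpha-tubulin Tuba4a was 1.59-fold higher.

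Chemoattractant receptors went both ways, with 8 of 19 higher by 2-fold or more in granulocytes and 5 lower. A further 11 were below the floor on both arrays. C5ar1, the receptor for the complement fragment C5a, read 10.04 against 6.29. Fpr2, a formyl peptide receptor, read 13.27 against 10.66 and Ccr1, a receptor for CC chemokines, 12.13 against 9.57. Of receptors for metabolites, Ffar2, for short-chain fatty acids, was 7.12-fold higher and Hcar2, for beta-hydroxybutyrate, 6.04-fold higher, whereas Gpr35 read 6.88 against 9.26 and was 5.21-fold lower. The leukotriene B4 receptor Ltb4r1 was 2.92-fold higher. Among the other lower receptors, Ccr2, which takes monocytes out of marrow, read 8.06 against 12.32 (19.1-fold lower), Cx3cr1, the fractalkine receptor, 6.64 against 10.78 (17.6-fold lower), and P2ry6, a receptor for UDP, 5.61 against 9.47 (14.5-fold lower). Cxcr4, which retains cells in marrow, was level at 10.98 and 10.93.

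Adhesion genes leaned to granulocytes, 14 of 44 being at least 2-fold higher and 7 lower. Cd9, a tetraspanin, read 11.81 against 7.95, Cd177, a neutrophil surface glycoprotein, 13.58 against 11.35, and St3gal6, which helps build selectin ligands, was at least 9.92-fold higher. Selplg, the selectin ligand PSGL-1, was only 1.62-fold higher. Of 16 integrin chains 2 were at least 2-fold higher and 4 lower, shares near those of all genes. Itgam, which encodes the sorted CD11b, was 3.10-fold higher and Itgb2l, a relative of the beta-2 chain, 27.5-fold higher, while the chains Itga4 (2.29-fold), Itga5 (3.18-fold), Itgb1 (2.94-fold) and Itgb7 (6.52-fold) were lower. Other probe sets of Itga5 and Itgb1 gave -0.50 and -0.49, and Itga6, another partner of Itgb1, had a difference of 0.74. Fn1, fibronectin, which Itga4 and Itga5 receptors bind, read 8.75 against 13.27.

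The actin cytoskeleton had 14 of 78 genes at least 2-fold higher and 8 lower (median 0.34). Actn1, an alpha-actinin that crosslinks filaments, read 11.83 against 6.60, whereas its close relative Actn4 read 9.25 against 9.19. Cyfip2, of the complex that activates branching, was 10.4-fold higher, Gsn, gelsolin, 3.74-fold higher and the membrane-linked motor Myo1d 7.31-fold higher. The annexins, which bind membranes with calcium, split: Anxa3 (5.32-fold) and Anxa1 (2.66-fold) were higher, and Anxa4 (5.86-fold), Anxa5 (2.56-fold) and Anxa6 (2.38-fold) lower. S100a10, which pairs with annexin A2, was 16.2-fold lower, while Anxa2 itself was 1.61-fold higher. Actb, beta-actin, was level near the top of the scale (14.06 and 14.09).

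Cytokine receptors were about evenly split, 10 of 51 higher and 9 lower. Il1r2, the decoy receptor for interleukin-1, read 11.45 in granulocytes, 6.31 in GFP-low monocytes, 9.47 in GFP-high cells and 6.69 in Gfi1-deficient cells. Both chains of the interleukin-18 receptor were on the high side, Il18rap at 9.75 against 5.24 and Il18r1 at least 10.6-fold. Csf3r, the receptor for granulocyte colony-stimulating factor, was 5.09-fold higher, and the receptor chains for granulocyte-macrophage colony-stimulating factor were within 2-fold (Csf2ra 0.21, Csf2rb 0.97). Acvrl1 and Bmpr1a, receptors of the TGF-beta and BMP family, were 7.57-fold and at least 7.15-fold higher, with Bmpr1a probe sets from 0.16 to 2.84.

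On the low side, Il6st, the signal chain shared by interleukin-6 family receptors, read 4.72 against 9.11 and was at least 15.2-fold lower (-0.76 by its smallest probe set difference), with Il6ra 2.30-fold and Lifr at least 4.58-fold lower (-0.12 by another Lifr probe set). Tnfrsf13b, a receptor for BAFF and APRIL, was 7.12-fold lower, Tnfrsf1b, the second TNF receptor, 4.12-fold lower and Ifngr1, for interferon gamma, 2.72-fold lower. Tnfrsf1a, the first TNF receptor, was 1.63-fold higher. Il10ra, for interleukin-10, read 6.57 against 8.82, but another of its probe sets gave 0.03.

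**Figure D4:**
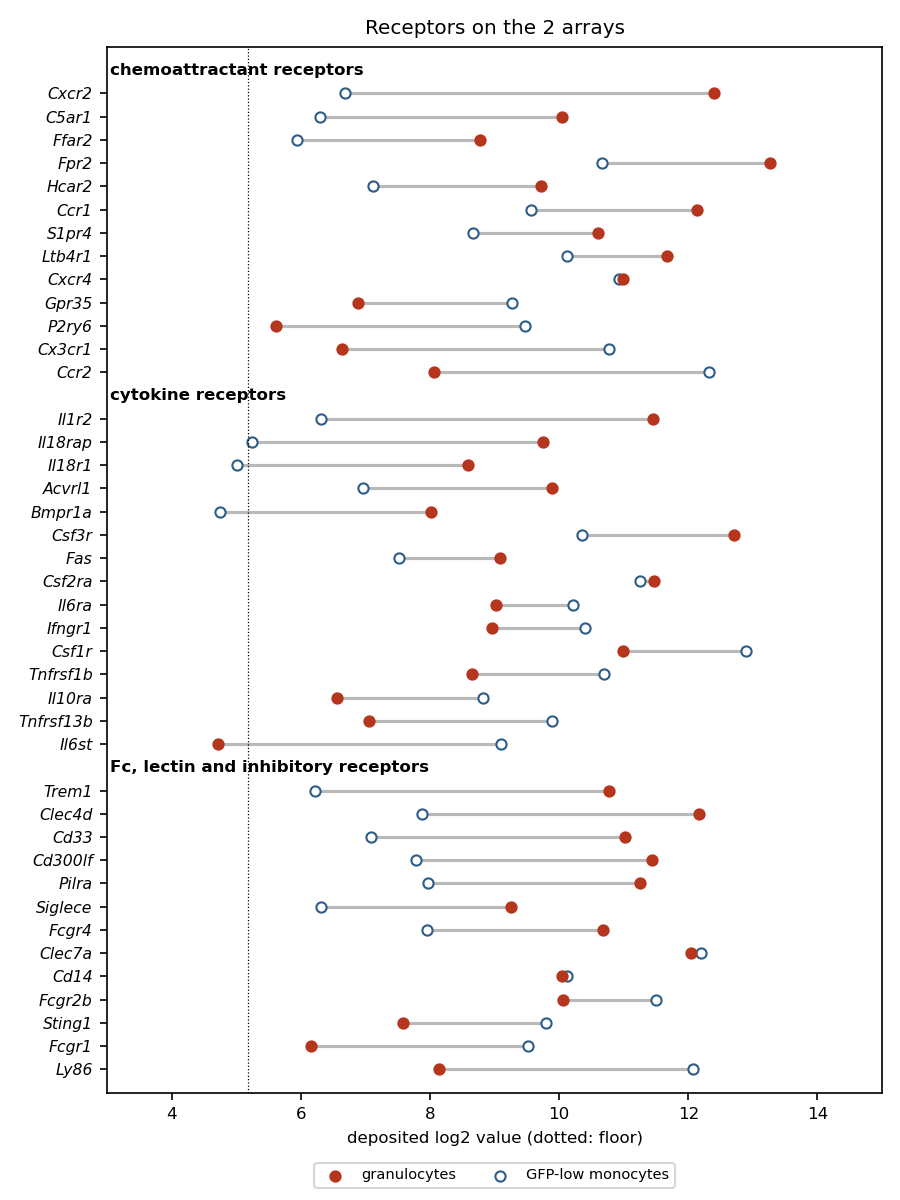
Filled red points give granulocytes and open blue points GFP-low monocytes, on the deposited log2 scale, for receptors grouped by kind; the dotted line is the floor of 5.18. In each group receptors run from those higher in granulocytes, such as Cxcr2 (12.40 against 6.68), to those lower, such as Ccr2 (8.06 against 12.32), with Cxcr4, Csf2ra, Clec7a and Cd14 near level.

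Downstream of cytokine receptors, Stat4 read 9.33 against 6.23 and the feedback inhibitor Socs3 9.35 against 7.58. Stat3 (0.60) and Jak2 (0.08) were within 2-fold, and Socs6 was 6.40-fold lower. NF-kappaB subunits and inhibitors were mostly level, with 2 of 20 higher and 2 lower. Ikbkb, the kinase that releases NF-kappaB, was 3.26-fold lower, with 4 probe sets from -1.71 to -0.11, and Nfkbiz, an inducible regulator, 2.19-fold higher.

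Pattern recognition genes were higher in 7 cases and lower in 11 of 39. Clec4d and Clec4e, lectins for mycobacterial and fungal lipids, were 19.6-fold and 5.74-fold higher, and Tlr4 and Tlr5, for lipopolysaccharide and flagellin, 3.54-fold and 4.01-fold higher. Cd14, the co-receptor for lipopolysaccharide, Tlr2 and Clec7a, the beta-glucan receptor, were level (-0.08, 0.24 and -0.15). Of receptors and adaptors that respond to nucleic acids, Tlr7 was 2.51-fold and Sting1 4.68-fold lower, and Tlr9 was within 2-fold (0.42). Ly86, which joins Cd180 at the surface, read 8.14 against 12.08, and Cd180 was 4.91-fold lower.

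Immunoreceptors had 11 of 44 genes higher and 7 lower. Trem1, an amplifier of neutrophil and monocyte activation, read 10.78 against 6.21, and the Fc receptor Fcgr4 10.68 against 7.96. The high-affinity Fc receptor Fcgr1 read 6.15 against 9.51 (10.3-fold lower), the inhibitory Fcgr2b was 2.73-fold lower, and the receptor that recycles IgG, Fcgrt, 5.44-fold lower. In the inhibitory group 5 of 18 genes were higher and 1 lower (median 0.13). Cd33 (15.3-fold), Cd300lf (12.6-fold), Pilra (9.65-fold) and Siglece (7.71-fold) were among the higher genes, while Cd300a had a difference of -0.47. Downstream parts were level, with the adaptor Tyrobp at 0.34, the kinase Syk at 0.31, and the phosphatases Ptpn6 at 0.17 and Inpp5d at 0.08. Of the Src family, Fgr was 2.12-fold higher and Fyn 3.85-fold lower. Several of these receptors belong to families of near-identical genes, whose signals short probes can mix.

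Signalling inside the cell differed at single members. In MAP kinase signalling 8 of 43 genes were higher and 8 lower. Mapk13, p38 delta, read 10.86 against 6.08 (27.5-fold), while Mapk14, p38 alpha, read 11.32 against 11.07, and Mapk8, a JNK, was 2.30-fold lower. The Ras inhibitors Rasa2 and Spred2 were 9.76-fold and 4.25-fold higher, but a second Spred2 probe set gave 0.15. Of the phosphatases that shut MAP kinases off, Dusp3 was 20.2-fold (-0.44 by its second probe set) and Dusp22 11.8-fold lower, with Dusp1 and Dusp6 within 2-fold. In G protein signalling (7 higher and 7 lower of 45), Arrb2, which silences chemoattractant receptors, was 5.28-fold higher and Pde2a, a cyclic nucleotide phosphodiesterase, 6.12-fold higher. Rgs18 was 2.97-fold higher, and its relative Rgs10 read 6.62 against 10.58 and was 15.6-fold lower.

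Phosphoinositide and mTOR genes leaned to granulocytes, with 7 of 39 higher and 2 lower. Pip5k1b, which makes PIP2, was 5.82-fold higher, and Deptor, an mTOR inhibitor, 4.46-fold lower, with probe sets from -2.68 to -0.06. Calcium genes held the widest split among the sets of relatives compared. Capn1, a calcium-activated protease, read 10.78 against 8.28, and Capn2, its partner isoform, 5.32 against 10.74, so the former was 5.67-fold higher and the latter 42.7-fold lower. Stim1, which opens calcium entry, was 2.47-fold higher.

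Granule contents differed by class. Of 10 tertiary granule and secretory vesicle genes 8 were at least 2-fold higher and none lower (median 2.39), and a further 5 were below the floor on both arrays. Among 14 of the secondary granule 8 were higher and none lower (median 1.40), and the 8 of the primary granule had 3 higher and 2 lower (median -0.57). In the tertiary class, Mmp9, gelatinase B, read 13.59 against 8.45, Adam8, a membrane protease, 12.48 against 7.46, and Padi4, which citrullinates histones in extracellular traps, 11.39 against 8.22. In the secondary class, Pglyrp1, a peptidoglycan binder, was 7.63-fold higher and Ltf, lactoferrin, 3.79-fold higher. Lyz2, lysozyme, was level at the top of the scale (14.02 and 14.16). In the primary class, Mpo, myeloperoxidase, was 2.43-fold higher and Prtn3, proteinase 3, 2.70-fold lower.

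Genes of exocytosis were higher in 8 of 44 cases and lower in 2. The Rab group held 5 of them, with Rab27a (2.43-fold), Rab3d (3.27-fold), Rab37 (at least 3.81-fold) and the effector Sytl1 (4.37-fold), which bring granules to the plasma membrane. The fusion protein Snap23 was 2.73-fold higher and Vamp8 within 2-fold (0.42). Stx3, a syntaxin, was 6.49-fold lower.

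Of 25 interleukin and TNF family genes, 12 were below the floor on both arrays. Of the 13 with a difference, 10 were at least 2-fold higher and 1 lower (median 1.52). That share depends on which low genes pass the floor. Il1b, interleukin-1 beta, read 12.56 against 7.92, and its natural antagonist Il1rn 11.02 against 6.84, so ligand, antagonist and the decoy receptor Il1r2 were all higher. Il1f9, interleukin-36 gamma, read 11.36 against 5.61 and Ltb, lymphotoxin beta, 10.95 against 6.69. Tnfsf13b, BAFF, was 6.75-fold higher in granulocytes, which had less of its receptor Tnfrsf13b. Il18 was 2.38-fold lower, opposite to its receptor chains. Among growth factors Prok2, a prokineticin, was at least 8.18-fold higher and Tgfb1, transforming growth factor beta 1, 3.52-fold lower.

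Of 17 chemokines 1 was higher and 4 lower (median 0.09), and 23.5% lower is near the share of all genes. Cxcl2, a ligand of Cxcr2, was 11.5-fold higher. Ccl9 read 8.94 against 12.77, Ccl3 8.11 against 10.45, and Ccl2, the ligand of Ccr2, 5.09 against 8.00, at least 7.07-fold lower. Ccl6 (0.35) and Ccl4 (-0.05) were level. Of 20 proteases and inhibitors 8 were higher and 4 lower. Timp2, an inhibitor of metalloproteinases, was 13.3-fold higher and Slpi, which restrains neutrophil elastase, 6.71-fold higher. The clotting factors F13a1 and F10 read 8.90 against 13.15 and 6.20 against 10.05, with F10 probe sets from -3.84 to -1.46. Cd55, which protects cells from complement, was at least 8.22-fold higher.

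Lipid mediator enzymes had 6 of 24 genes higher and 3 lower. Ptgs2, the inducible cyclooxygenase, read 10.90 against 7.78, and Lta4h, which makes leukotriene B4, 11.92 against 10.15. Alox5ap, which hands arachidonic acid to lipoxygenase, was within 2-fold (0.43). Hpgd, which inactivates prostaglandins, read 6.60 against 10.21 and was 12.2-fold lower, but its second probe set gave -0.34.

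**Figure D5:**
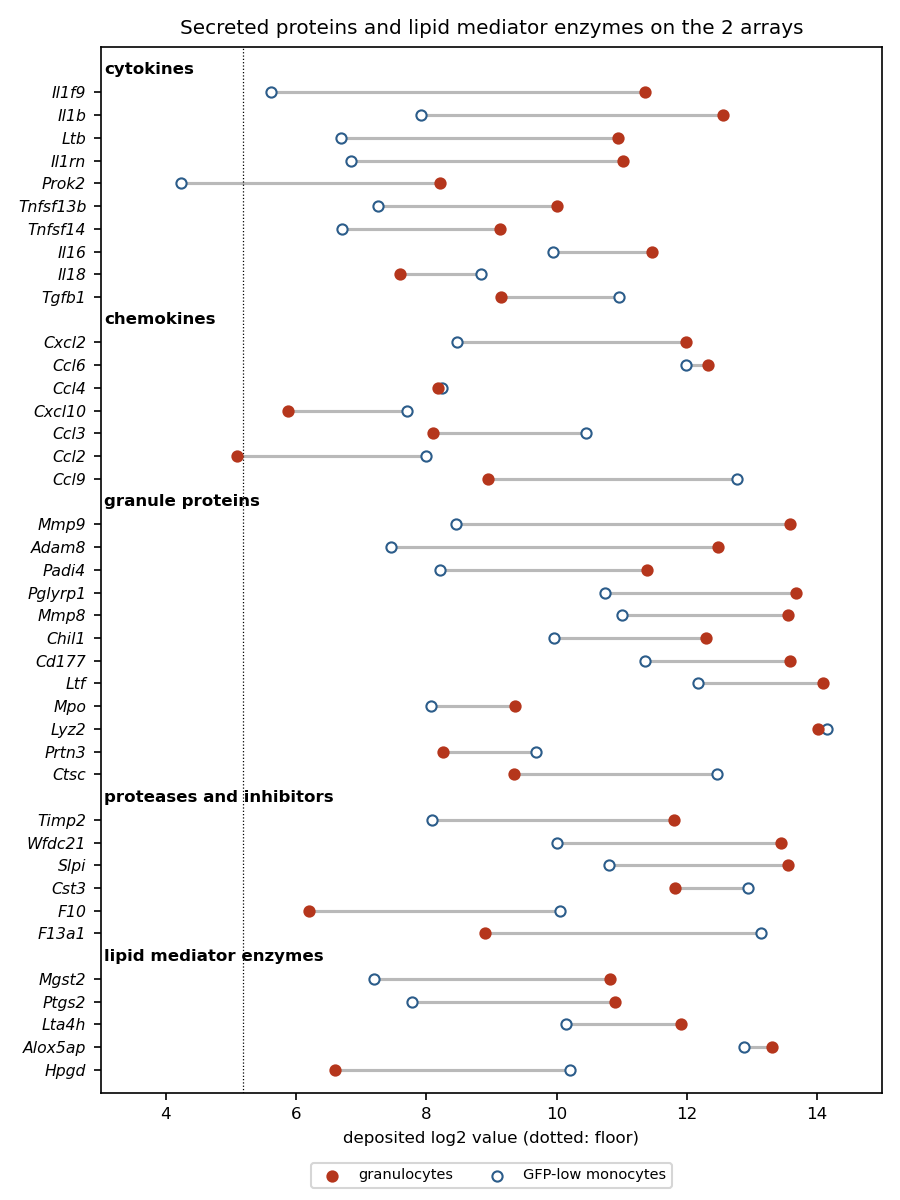
Filled red points give granulocytes and open blue points GFP-low monocytes, on the deposited log2 scale, for secreted proteins and enzymes of lipid mediators; the dotted line is the floor of 5.18. Most cytokines and granule proteins lie to the right in granulocytes (Il1b 12.56 against 7.92), while chemokines other than Cxcl2 and Ccl6, the clotting factors and Hpgd lie to the left or level.

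Survival genes of the Bcl2 family differed little, with 1 of 18 at least 2-fold higher and 3 lower (median 0.10). Mcl1, on which neutrophil life depends, read 12.08 against 11.82, Bcl2 6.28 against 6.24, and Bcl2l1, Bcl-xL, 8.23 against 7.22, at 2.01-fold. Pmaip1, Noxa, an antagonist of Mcl1, was 3.48-fold lower, and the death inducers Bcl2l11, Bim (-0.75), and Bbc3, Puma (0.06), were within 2-fold. Caspases and their activators were lower in 8 of 14 cases and higher in none (median -1.15). Casp8, the initiator at death receptors, read 8.74 against 9.96, and the effector Casp6 6.87 against 8.55. Parp1, a caspase target and DNA break sensor, was 5.78-fold lower. Of 13 caspase inhibitors and relatives 4 were lower and none higher (median -0.56), with Faim 8.40-fold lower, Birc5, which also serves mitosis, 4.61-fold lower, and Birc2 and Cflar within 2-fold (0.73 and 0.82). Fas, a death receptor, was 2.97-fold higher. For inflammatory death, Pycard, the inflammasome adaptor, was 3.19-fold lower, and Nlrp3 and Casp1 were within 2-fold.

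Stress genes split by kind of stress. Of 25 heat shock chaperones 14 were at least 2-fold lower and none higher (median -1.23), with Hspa8 at 11.13 against 12.43 (probe sets from -1.58 to -0.04) and the co-chaperone Bag3 at 5.91 against 8.18. Dnajb1 differed by 0.29, with probe sets of both signs. DNA damage genes were higher in 6 of 32 cases and lower in 8. Gadd45a read 10.94 against 7.47 and Trp53inp1, another target of p53, 11.34 against 8.83, but Cdkn1a, p21, the best known target, read 6.88 against 9.44. Atm, the kinase that senses breaks, was at least 4.29-fold lower. Hypoxia genes had 3 of 17 higher and 2 lower, among them Egln3, a prolyl hydroxylase (3.26-fold higher), and Hif1a was within 2-fold (0.32).

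Transcription factors were grouped by lineage with earlier results of these data known, so the counts describe the groups and do not test them. Of 15 granulocytic factors 9 were higher by 2-fold or more and 1 was lower, and of 27 monocytic and dendritic factors 11 were lower and 2 higher. Mxd1, an antagonist of Myc, read 10.56 against 5.61 and Klf5 10.57 against 5.72, with a second Klf5 probe set at 1.48. Cebpa, which starts the granulocytic programme, was the 1 granulocytic factor that was lower, at 8.47 against 10.51, while Cebpd was 2.36-fold higher and Cebpb level (0.22). Irf8 read 7.23 in granulocytes, 10.80 in GFP-low monocytes, 7.09 in GFP-high cells and 10.80 in Gfi1-deficient cells. Klf4, a monocyte factor, read 7.28 against 11.38, and Irf5 and Zeb2 were 7.55-fold and 7.10-fold lower, though a second Irf5 probe set gave -0.05. Egr1, listed with the monocytic factors and also induced at once by many stimuli, was 10.5-fold higher in granulocytes. Spi1, PU.1, was within 2-fold (0.77). Gfi1 was at least 4.39-fold higher in granulocytes, while the monocytes had been gated for low GFP.

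Antigen presentation was lower on the class II side. Of 12 genes 7 were at least 2-fold lower and 1 higher. Ifi30, the thiol reductase of antigen processing, had a difference of -3.58, and H2-DMa, which loads peptides, read 7.15 against 10.44 and Cd74, the invariant chain, 9.58 against 11.30. Cd80, a costimulator, was the 1 gene higher (2.70-fold). On the class I side, B2m was level at 13.40 and 13.39, the immunoproteasome subunit Psmb10 was 4.69-fold lower, and H2-Q10 read 10.10 against 4.50, though the H2-Q genes are near-identical to each other.

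Genes outside all lists gave large differences as well. On the high side were Ankrd33b (at least 46.6-fold), Scrg1 (44.7-fold), the skin protease gene Asprv1 (43.0-fold), Basp1, a membrane-associated growth protein (33.8-fold), and Tmem40 (32.8-fold). Reck, an inhibitor of metalloproteinases, was at least 31.6-fold higher, as was, at 30.7-fold, Lrg1, a secreted glycoprotein of neutrophil granules. Klra17, of a family of near-identical receptor genes, was at least 33.2-fold higher. On the low side were Cd302, a C-type lectin (at least 25.5-fold), Ptpro, a receptor phosphatase (22.3-fold), Calhm2, a channel of the calcium homeostasis modulator family (19.0-fold), Pld4, an endolysosomal nuclease (a log2 difference of -4.17), and Evl, an actin regulator (17.6-fold). Cd48, the surface marker named in the title of the series, read 7.10 against 11.22. Ahnak, a giant scaffold protein, was 18.9-fold lower by the probe set used, but its 3 probe sets ranged from -4.24 to -0.60.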

How the data were processed

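Per the labels' protocols, TRIzol was used for extraction, and cRNA was labelled with biotin from 6 µg of RNA for Affymetrix arrays. The deposited log2 values of the authors were used as given, 1 per probe set (22690) and array. The log base was inferred from their range (2.70 to 14.50), and how they were summarised and normalized is not stated in the labels or headers. If the arrays were forced to a common distribution, a shift of most genes would be hidden. Array medians were 5.91 for granulocytes and 6.01 for GFP-low monocytes. Probe sets with 1 gene in the platform annotation (20393) were named through RefSeq identifiers, and 691 with several genes were left out. The floor was the 40th percentile of all values, and genes were counted at differences of 1 and 2. Members and lists were chosen with earlier results of these data known, and 1 list is not reported here. Genes are named as list anchors, as the largest differences of a role group or outside all lists, as relatives of opposite direction, or as cell type markers. Pax5, Ebf1, Cd34 and Arg1, below the floor, were named after their values were seen. Scripts used Python 3.11.15 with pandas 2.3.3, and were tested on simulated arrays. Arrays have no read depth, so their number limits the precision. Alternatives changed the floor, the probe set and the scaling.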

Additional observations from a re-analysis of the deposited data

How the results depend on the processing

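Under all 8 alternatives to the floor, the probe set and the scaling, both counts of genes stayed within 1.5 times, from 679 to 989 higher and from 1036 to 1646 lower. Of 416 recomputed list medians 405 shifted by less than the probe-set SD of 0.35. Among the rest, a floor at the 60th percentile gave 1.74 for chemoattractant receptors, 1.29 for secreted cytokines, -0.90 for chemokines (0.09 otherwise), -0.71 for ribosome biogenesis and -0.87 for heat shock. Without any floor secreted cytokines stood at 0.31. Use of only those probe sets without the suffixes of shared probes gave 1.10 for chemoattractant receptors, 1.22 for secreted cytokines, -0.12 for iron and heme (0.25 otherwise), -0.67 for p53 targets and -0.79 for heat shock, and turned Rps18 to 0.17. The higher floor and the choice by suffix measure fewer genes, and no floor more; the cause was not tested further. The sign turned in 29 of the 416, all in 12 lists whose median was at most 0.283 away from 0. Of 2506 recomputed values of named genes 2314 shifted by less than 0.35, and 7 turned sign. Sod2 and Mcpt8 no longer reached 2-fold under quantile normalization (-0.95 and -0.83). The median over all genes moved to 0.07 under quantile normalization, 0.12 without a floor and -0.11 with the higher floor. No paired analysis was possible because each population has 1 array. Low signal limits 3890 genes, and 977 differences are bounds.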
